A study of Rattus norvegicus with 4 samples.

Results

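The cytochrome P450 genes described here were those left after the classes most often studied in liver were set aside. They were chosen by symbol alone, as every gene whose name begins with Cyp, a number and a letter, except the Cyp2a, Cyp2b, Cyp2c, Cyp3a and Cyp4a subfamilies and except Cyp2e1, Cyp7a1, Cyp7b1, Cyp8b1, Cyp27a1 and Cyp51. The rule gave 42 of the 73 P450 symbols of that pattern, among 16999 named genes in all. Of the 42 genes, 21 had a mean abundance of at least 1 TPM over the libraries and are described in full. TPM corrects an abundance for the length of the gene and the size of the library, so levels of different genes can be set beside each other. Nearest to this limit, Cyp4f17 lay inside it with a mean of 1.53 TPM, and Cyp2j10 (0.984) and Cyp26a1 (0.812) lay outside it.

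Gene expression was measured by RNA sequencing of livers from wild type rats that inhaled sevoflurane at 4.5% or desflurane at 6%, which are halogenated agents for general anesthesia. For each agent, a control rat was decapitated at once when it lost consciousness (0 h) and another rat was decapitated after 6 h of anesthesia, and each of the 4 groups held 1 library. The controls had therefore also inhaled their agent until consciousness was lost, and no library came from a rat without anesthetic. The livers at 0 h and 6 h were taken 6 h apart in the day, so hours under anesthetic and hour of the day cannot be told apart in any comparison of 6 h with 0 h.

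P450 enzymes are heme proteins that insert an oxygen atom into their substrates, with electrons passed on by cytochrome P450 reductase in the endoplasmic reticulum or by ferredoxin in mitochondria. Members of the first families mostly oxidize drugs and other foreign compounds, the Cyp4 family and the Cyp2j subfamily oxidize fatty acids and eicosanoids, and the remaining families make or break down steroids, oxysterols, retinoic acid and vitamin D. Many of these genes are turned on by nuclear receptors or by the aryl hydrocarbon receptor, and many are expressed in only some zones of the liver lobule.

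The 42 genes together took a summed level of 1900 TPM at 0 h and 1970 at 6 h of sevoflurane, and of 2382 TPM at 0 h and 2032 at 6 h of desflurane. That was 14.1%, 12.6%, 15.6% and 13.8% of the TPM of all 73 P450 symbols, in the same order. The ratio of the sum at 6 h to that at 0 h was 1.04 for sevoflurane and 0.853 for desflurane, while the ratio of the desflurane to the sevoflurane control was 1.25. The 5 Cyp2d genes, which encode drug oxidases, made up most of the sum. They took 71.8% and 68.7% of it in sevoflurane 0 h and 6 h, and 75.5% and 69.2% in desflurane 0 h and 6 h. By mean level the order began with Cyp2d2 (773 TPM), Cyp2d3 (296), Cyp2d5 (199), Cyp4f1 (191) and Cyp2d1 (179), followed by Cyp1a2 (80.2), Cyp4f4 (59.9), Cyp4f6 (51.9), Cyp2j3 (51.6) and Cyp39a1 (46.2). Only Cyp2d2 among these 10 had a range over the 4 libraries clear of all the others. From Cyp2d3 to Cyp2d1 and from Cyp1a2 to Cyp39a1 the range of each gene overlapped that of the next. These ranges hold the differences between 0 h and 6 h as well as the spread between animals. Compared within each library, Cyp2d3 always lay above Cyp2d5 and Cyp1a2 above Cyp4f4. The other neighbours in these runs changed order in some library.

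**Figure D1:**
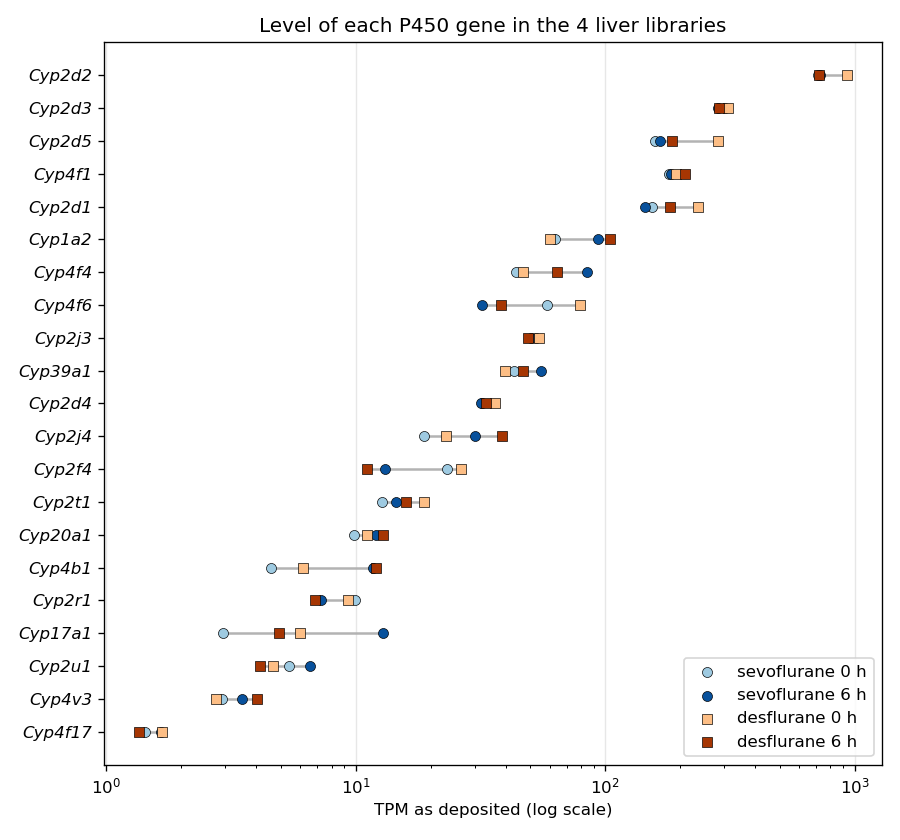
Level of the 21 P450 genes with a mean of at least 1 TPM, with TPM on a logarithmic x axis, 1 point for each library and a grey line from the lowest to the highest library. The levels ran from 1.53 TPM (Cyp4f17, mean) to 773 TPM (Cyp2d2, mean), and Cyp17a1 spread most widely, from 2.94 to 12.8 TPM.

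The tables implied 3.50, 5.38, 5.29 and 5.57 Gb of aligned bases in the libraries (sevoflurane 0 h and 6 h, then desflurane 0 h and 6 h), so low values were least precise in sevoflurane 0 h. The lowest mean coverage of a gene described in full was 3.39-fold, for Cyp4f17 in that library. None of 8 hepatocyte markers was called in any comparison, and albumin lay between 53282 and 58868 TPM. The summed level of 6 Kupffer cell and macrophage markers was 259, 220, 244 and 297 TPM in the same order, with no call, and none of 4 endothelial, 6 stellate and 2 cholangiocyte markers was called with either agent. The red blood cell markers (Hba1, Hbb and Alas2) summed to 453 and 1214 TPM with sevoflurane at 0 h and 6 h and to 728 and 1342 TPM with desflurane, and all 3 were called higher with sevoflurane. Neutrophil and lymphocyte markers lay at 4.50 TPM or less in sum, with S100a8 called higher and Nkg7 lower with sevoflurane, S100a9 lower with desflurane, and Mpo listed at 0. In whole liver, a change in the number of cells of a type and a change of RNA per cell cannot be told apart.

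With both agents considered together, 6 of the 21 genes differed between 6 h and 0 h. Cyp1a2, Cyp4b1, Cyp4f4 and Cyp2j4 rose, and Cyp4f6 and Cyp2f4 fell. They were called by limma on log2(TPM + 1) with the agent as a block, at a Benjamini-Hochberg adjusted p below 0.05 over all 9201 genes with a mean of at least 1 TPM. The share of genes called was 6.93% over all genes, 3.96% higher and 2.98% lower. The test rests on 2 animals against 2 and 1 residual degree of freedom. The spread of each gene was estimated with help from the others. With the block, a gene's own residual is the difference between its changes with the 2 agents. It mixes the spread between single animals with any difference between the agents, so the p-values measure neither alone. In the fit without the block, 4 were called and Cyp4f4 and Cyp2j4 were not, with 469 calls over all genes in place of 638. The calls in that fit also depended on single libraries, left out in turn. Without the sevoflurane control Cyp4f6 alone of the 21 was called, among 191 calls over all genes, and without the desflurane control Cyp4b1 alone, among 320. Without sevoflurane 6 h, 4 were called (Cyp1a2, Cyp2f4, Cyp2j4 and Cyp4b1) among 581 genes, and without desflurane 6 h, 2 were (Cyp4f4 and Cyp4f6) among 376.

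In 7 genes both 6 h libraries lay above both 0 h libraries (Cyp1a2, Cyp20a1, Cyp2j4, Cyp39a1, Cyp4b1, Cyp4f4 and Cyp4v3), and in 5 genes they lay below (Cyp2d3, Cyp2f4, Cyp2j3, Cyp2r1 and Cyp4f6). Over all 9201 genes these shares were 22.8% above and 27.9% below, against 33.3% and 23.8% of the 21 genes. The median change of log2(TPM + 1) over the 21 genes was 0.12 for sevoflurane (0.05 over all genes) and -0.13 for desflurane (-0.10 over all genes). The control of desflurane exceeded that of sevoflurane by a median of 0.16 in these genes and of 0.11 over all genes, and changes with desflurane are read against that shift.

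**Figure D2:**
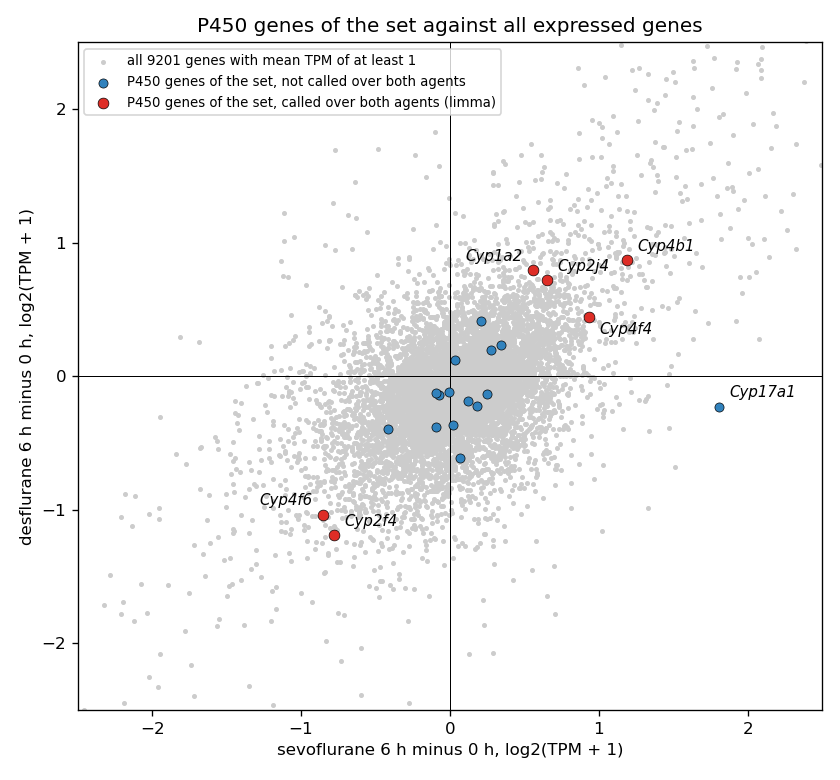
Change of log2(TPM + 1) from 0 h to 6 h with sevoflurane (x axis) and desflurane (y axis) for the 21 P450 genes, red where called by limma over both agents and blue where not, over all 9201 genes in grey, of which 68 lie beyond the plotted range of 2.5. The 4 red genes at the upper right changed by 0.45 to 1.19, the 2 at the lower left by -0.78 to -1.19, and Cyp17a1 lies apart at 1.81 with sevoflurane and -0.23 with desflurane, the latter 0.59 against the other control.

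The promoters of the genes called over both agents are shown because these genes moved together, up or down, in the 6 h livers. RefSeq windows of the rat build GRCr8, running from 250 bases before to 50 bases after the gene's start, were matched by symbol for 17 of the 21 genes, and of the 6 called genes Cyp4f4 was not matched. Each line gives the 250 bases before the start on the gene's own strand. The windows are chr1:91543518-91543767 on the plus strand for Cyp2f4 and, on the minus strand, chr5:116323043-116323292 for Cyp2j4, chr5:134393117-134393366 for Cyp4b1, chr7:12708379-12708628 for Cyp4f6 and chr8:66978150-66978399 for Cyp1a2. Capitals mark exact matches, on either strand, to a nuclear receptor half-site (AGGTCA), the core bound by the aryl hydrocarbon receptor (GCGTG), an E-box (CACGTG), a D-box (TTATGTAA) or a TATA box (TATAAA).
Cyp1a2: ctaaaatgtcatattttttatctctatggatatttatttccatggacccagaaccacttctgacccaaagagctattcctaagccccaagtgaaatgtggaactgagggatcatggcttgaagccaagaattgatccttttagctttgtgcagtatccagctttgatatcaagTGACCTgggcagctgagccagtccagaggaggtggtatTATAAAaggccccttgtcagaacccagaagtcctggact
Cyp2j4: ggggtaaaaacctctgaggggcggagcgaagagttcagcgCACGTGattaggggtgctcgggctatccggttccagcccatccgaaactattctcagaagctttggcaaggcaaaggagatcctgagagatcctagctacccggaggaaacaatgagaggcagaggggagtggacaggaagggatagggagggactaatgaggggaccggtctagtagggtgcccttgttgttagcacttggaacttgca
Cyp4b1: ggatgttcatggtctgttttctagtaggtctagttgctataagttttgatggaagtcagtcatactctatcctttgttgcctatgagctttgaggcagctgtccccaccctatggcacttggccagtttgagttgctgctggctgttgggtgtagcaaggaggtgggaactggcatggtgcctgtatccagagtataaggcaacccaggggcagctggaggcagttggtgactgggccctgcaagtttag
Cyp4f6: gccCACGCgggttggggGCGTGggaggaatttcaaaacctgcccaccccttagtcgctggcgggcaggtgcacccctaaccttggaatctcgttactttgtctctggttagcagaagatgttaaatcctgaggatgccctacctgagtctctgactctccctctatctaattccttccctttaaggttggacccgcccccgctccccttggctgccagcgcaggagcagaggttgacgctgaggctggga
Cyp2f4: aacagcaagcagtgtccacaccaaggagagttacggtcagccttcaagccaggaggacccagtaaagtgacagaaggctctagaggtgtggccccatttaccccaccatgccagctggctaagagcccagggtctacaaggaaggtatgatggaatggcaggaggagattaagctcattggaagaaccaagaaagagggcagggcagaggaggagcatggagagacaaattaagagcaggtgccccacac

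Counted from the gene's start, the Cyp1a2 window held a half-site at -77 to -72, read on the other strand, and a TATA box at -39 to -34. The Cyp2j4 window held an E-box at -210 to -205, and the Cyp4f6 window held the receptor core at -247 to -243 and at -233 to -229. None of these matches overlapped another. The windows of Cyp4b1 and Cyp2f4 held none of the 5 strings, which says only that these letters are not in the windows. Over whole windows of the 17 matched genes, the half-site was found in 4 (16.2% of all 33469 windows held it), the receptor core in 7 (29.7%), the E-box in 1 (6.42%), the D-box in 0 (0.893%) and the TATA box in 4 (14.2%). The receptor core was in the windows of Cyp2t1, Cyp2r1, Cyp2u1, Cyp4f1, Cyp4f6, Cyp39a1 and Cyp20a1, and not in that of Cyp1a2. The TATA box was in those of Cyp2d1, Cyp2d3, Cyp2d5 and Cyp1a2. A match to a short string is a description and not a binding site.

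With each agent on its own, a gene was called higher or lower where the larger TPM exceeded 2 and the ratio exceeded 2. No p-value belongs to these comparisons of single libraries. With sevoflurane, 2 of the 21 genes were called higher at 6 h (Cyp17a1 and Cyp4b1), against 4.52% of all genes, and 0 were called lower, against 3.31%. With desflurane, 0 were called higher, against 3.71% of all genes, and 2 were called lower (Cyp2f4 and Cyp4f6), against 5.05%. With libraries rescaled to a common median ratio, the desflurane split of 0 higher and 2 lower became 1 higher (Cyp4b1) and 1 lower (Cyp2f4). The same rule called 1 gene higher (Cyp17a1) and 0 lower in the desflurane control against the sevoflurane control, where the shares of all genes were 1.76% and 0.696%. That call, at a ratio of 2.02, was lost under the same rescaling. It was also lost when the named genes without the abundant RNA gene Rn7sl1 were rescaled to a common total. The part of Rn7sl1 itself in that loss was not tested. Between the anesthetized animals it called 1 gene lower (Cyp17a1) and 0 higher in desflurane 6 h than in sevoflurane 6 h, against 1.58% and 1.96% of all genes. A single call among 21 genes is a share of 4.76%, so these counts are coarse.

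**Figure D3:**
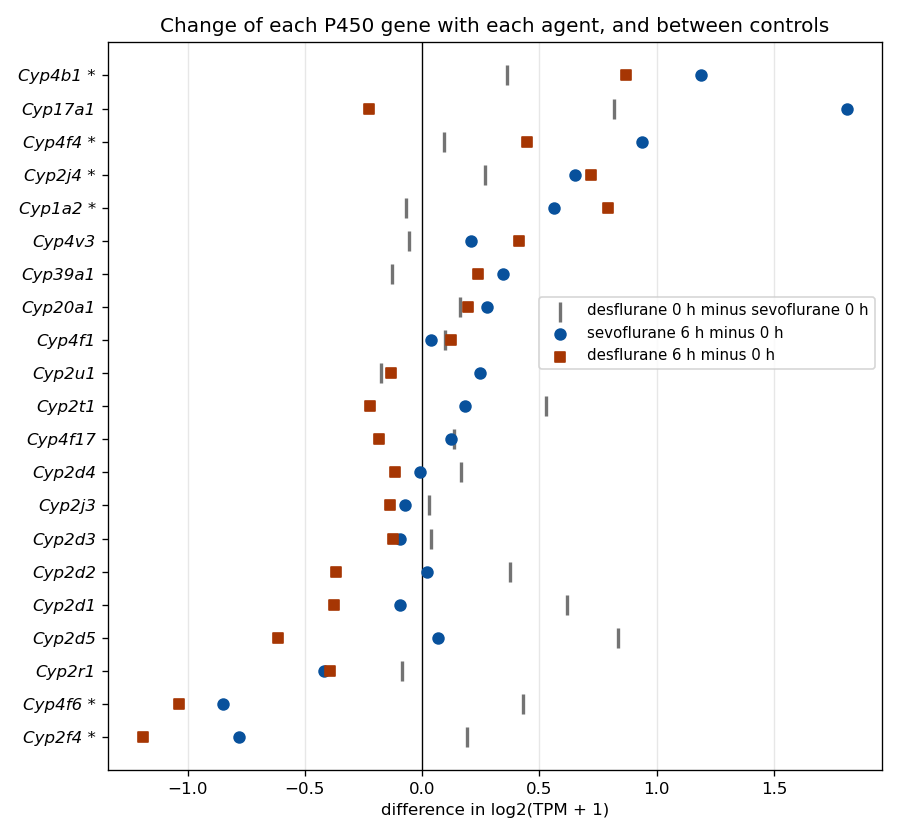
Difference in log2(TPM + 1) for each of the 21 P450 genes on the x axis, with circles for sevoflurane 6 h minus 0 h, squares for desflurane 6 h minus 0 h and grey ticks for the desflurane control minus the sevoflurane control, ordered by the mean of both changes and with an asterisk at the 6 genes called by limma. Circle and square lie on the same side of 0 in 15 of the 21 genes, and the grey ticks of Cyp2d1, Cyp2d5 and Cyp17a1 lie at 0.62, 0.84 and 0.82.

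The Cyp1 family holds the P450 enzymes turned on by the aryl hydrocarbon receptor. Cyp1a2 (chr8:62451360-62458244, minus strand), which oxidizes caffeine and aromatic amines in hepatocytes near the central vein, had levels of 62.9 TPM in sevoflurane 0 h, 93.3 in sevoflurane 6 h, 60.0 in desflurane 0 h and 105 in desflurane 6 h. The controls differed little and both 6 h livers lay above both of them. The ratio was 1.48 for sevoflurane and 1.75 for desflurane, and the common change was 0.68 on the log2 scale (SE 0.14, limma with Benjamini-Hochberg adjustment, adjusted p = 0.0182). The 2 other genes of the family stayed near the lower end of detection. Cyp1a1, which metabolizes polycyclic hydrocarbons, lay between 0.150 and 0.249 TPM, and Cyp1b1, the form of extrahepatic tissues, between 0.0253 and 0.161 TPM.

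Of 7 other genes of the aryl hydrocarbon receptor pathway that passed the mean of 1 TPM, sevoflurane had 1 called higher and 1 lower, and desflurane 0 and 1. The receptor gene Ahr had levels of 8.92 and 29.2 TPM with sevoflurane at 0 h and 6 h, a ratio of 3.27, and of 20.6 and 37.9 TPM with desflurane, a ratio of 1.84, with the controls themselves apart. The oxidative stress factor Nfe2l2 was lower with both, from 78.6 to 31.2 TPM with sevoflurane and from 62.6 to 23.0 TPM with desflurane. The receptor's partner Arnt and its targets Tiparp and Nqo1 were not called. Some zonal markers differed as well. The 6 periportal markers summed to 2251 and 5243 TPM with sevoflurane at 0 h and 6 h. With desflurane they summed to 2662 and 5285 TPM, with 2 of 6 called higher each time. The genes called were Arg1 and Pck1 with sevoflurane and Arg1 and Ass1 with desflurane. Hal, Gls2 and Hsd17b13 changed little, with ratios of 0.849 to 1.19 over both agents. The 7 pericentral markers used summed to 831 and 1068 TPM with sevoflurane (1 higher, 0 lower) and to 838 and 1024 TPM with desflurane (2 higher, 1 lower). The rise in the sum came mainly from ornithine aminotransferase (Oat), at 139 and 402 TPM with sevoflurane and 108 and 305 TPM with desflurane. Rgn, the largest of the list, lay between 525 and 575 TPM. The median change of the list was -0.25 with sevoflurane and -0.01 with desflurane. Tbx3 was the gene called lower, and glutamine synthetase (Glul), the marker of the hepatocytes next to the central vein, ranged only from 127 to 152 TPM. The part of these differences in the change of Cyp1a2 was not tested.

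The Cyp2d subfamily encodes oxidases of basic drugs, in the rat as a cluster of 5 closely related genes on the minus strand of chromosome 7. Cyp2d2 (chr7:123651827-123655896), the most abundant gene of the set, had levels of 716 and 727 TPM in sevoflurane 0 h and 6 h and of 929 and 720 TPM in desflurane 0 h and 6 h. Cyp2d3 (chr7:123634400-123638757) was the steadiest, with 303, 284, 312 and 286 TPM in the same order. Cyp2d5 (chr7:123616596-123621102) had 159, 166, 284 and 186 TPM, and Cyp2d1 (chr7:123625641-123630045) had 154, 144, 236 and 182 TPM. In Cyp2d2, Cyp2d5 and Cyp2d1 the desflurane control was the library that stood above the other 3. Cyp2d4 (chr7:123599264-123608436), a form also known from brain, lay between 31.8 and 36.04 TPM in all libraries.

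The summed Cyp2d level was 1364 and 1354 TPM with sevoflurane and 1797 and 1406 TPM with desflurane at 0 h and 6 h. The ratio of the controls, 1.32, was further from 1 than either the ratio of 6 h to 0 h with sevoflurane, 0.992, or that with desflurane, 0.782. The controls differed by a ratio of 1.79 in Cyp2d5 and of 1.54 in Cyp2d1, and by 1.03 in Cyp2d3. No Cyp2d gene was called with either agent, and over both agents the limma change ranged from -0.27 for Cyp2d5 (adjusted p = 0.429) to -0.06 for Cyp2d4 (adjusted p = 0.89, Benjamini-Hochberg). Within the cluster, Cyp2d2 held 51.2% to 53.7% of the Cyp2d level and Cyp2d5 11.6% to 15.8%. These genes resemble each other closely enough for reads to be split between them. The loci assembled from the reads merged some of them in every library, and only in desflurane 0 h did a locus hold all 5. The levels of single Cyp2d genes are therefore uncertain. Whether the merging bears on the higher levels in the desflurane control was not tested.

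Of the other family 2 genes that act on foreign compounds, Cyp2f4 (chr1:83935554-83947804, plus strand) belongs to a subfamily known for turning naphthalene and styrene into toxic epoxides in the lung. Its level was 23.1 and 13.1 TPM in sevoflurane 0 h and 6 h and 26.5 and 11.1 TPM in desflurane 0 h and 6 h. Both controls stood above both 6 h livers, 1.77-fold with sevoflurane and 2.40-fold with desflurane. The common change was -0.99 on the log2 scale (SE 0.19, limma with Benjamini-Hochberg adjustment, adjusted p = 0.0129). Its neighbour Cyp2t1 (chr1:83965798-83969466), a gene of no settled function, lay on the same strand and did not share the pattern, with 12.7, 14.5, 18.8 and 16.0 TPM. Cyp2s1, an epithelial form, reached at most 0.120 TPM, and Cyp2g1, the form of the nasal lining, was listed at 0 in all libraries.

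The Cyp4f subfamily hydroxylates the end of the chain of fatty acids and of leukotrienes, and a pair of its members on chromosome 7, Cyp4f4 and Cyp4f6, moved in opposite directions. Cyp4f4 (chr7:14891062-14907250, plus strand) had 43.9 and 84.8 TPM in sevoflurane 0 h and 6 h and 46.9 and 64.2 TPM in desflurane 0 h and 6 h. Cyp4f6 (chr7:15198968-15225399, minus strand) had 58.5 and 32.0 TPM with sevoflurane and 79.1 and 38.0 TPM with desflurane. In neither gene did the 6 h libraries overlap the controls. Cyp4f4 was 1.93-fold higher with sevoflurane and 1.37-fold with desflurane, with a common change of 0.69 (SE 0.16, limma with Benjamini-Hochberg adjustment, adjusted p = 0.0328). Cyp4f6 was 1.83-fold lower with sevoflurane and 2.08-fold lower with desflurane, with a common change of -0.94 (SE 0.15, limma, adjusted p = 0.00453), the lowest adjusted p among the 21 genes.

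The order of the pair turned over between 0 h and 6 h. The ratio of the Cyp4f6 level to the Cyp4f4 level was 1.33 in sevoflurane 0 h and 1.69 in desflurane 0 h, and 0.377 and 0.593 in the 6 h libraries. Their sum changed less, from 102 to 117 TPM with sevoflurane and from 126 to 102 TPM with desflurane. Shares were taken of the summed level of the Cyp4f genes with a mean of at least 1 TPM. Cyp4f4 took 15.5% and 28.0% of it in sevoflurane 0 h and 6 h and 14.6% and 20.5% in desflurane 0 h and 6 h, while Cyp4f6 took 20.6%, 10.6%, 24.7% and 12.2%. Cyp4f1 (chr7:15179526-15190720, minus strand), the most abundant of the subfamily and the neighbour of Cyp4f6, stayed between 179.7 and 209.2 TPM, with a change of 0.08 over both agents (limma, adjusted p = 0.803). The low members were Cyp4f17 (1.36 to 1.68 TPM) and Cyp4f5, Cyp4f37, Cyp4f40 and Cyp4f18, none above 0.518 TPM in any library. Since Cyp4f genes are alike in sequence, reads may have been split between them, and how far that touches Cyp4f4 and Cyp4f6 was not tested.

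Cyp4b1 (chr5:134508728-134526037, minus strand) oxidizes fatty acids and some plant toxins and is best known from lung. Its level was 4.59 and 11.7 TPM in sevoflurane 0 h and 6 h and 6.17 and 12.1 TPM in desflurane 0 h and 6 h. Both anesthetized livers stood above both controls. The ratio was 2.56 for sevoflurane and 1.96 for desflurane, and the common change, 1.03 on the log2 scale (SE 0.21, limma with Benjamini-Hochberg adjustment, adjusted p = 0.0189), was the highest among the 21 genes.

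The Cyp2j subfamily turns arachidonic acid into epoxides, and its 2 genes with a mean of at least 1 TPM differed. Cyp2j4 (chr5:119546459-119564844, minus strand) had 18.8 and 30.2 TPM in sevoflurane 0 h and 6 h and 22.9 and 38.4 TPM in desflurane 0 h and 6 h, and is named here because the test called it, not by its level. The 6 h values lay above the controls at a ratio of 1.60 with sevoflurane and 1.67 with desflurane, with a common change of 0.69 (SE 0.16, limma with Benjamini-Hochberg adjustment, adjusted p = 0.0336). Cyp2j3 (chr5:115196984-115222084, minus strand) had 53.0, 50.3, 54.1 and 49.1 TPM, and its change of -0.11 was not called (limma, adjusted p = 0.775). Cyp2j4 accordingly took 26.2% and 37.5% of the summed level of Cyp2j3 and Cyp2j4 with sevoflurane at 0 h and 6 h and 29.8% and 43.9% with desflurane. The other oxidases of fatty acids, Cyp2u1 (4.15 to 6.58 TPM) and Cyp4v3 (2.75 to 4.00 TPM), were not called, and Cyp4x1 reached at most 0.00894 TPM.

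Among 6 other genes of epoxide and eicosanoid metabolism with a mean of at least 1 TPM, 0 were called with sevoflurane, and with desflurane 1 was called higher and 1 lower. Soluble epoxide hydrolase (Ephx2), which opens the fatty acid epoxides that Cyp2j enzymes make, had 11.5 and 12.4 TPM with sevoflurane and 6.73 and 14.4 TPM with desflurane at 0 h and 6 h. Ltc4s, which makes cysteinyl leukotrienes, had 8.67 and 10.8 TPM with sevoflurane and 10.02 and 1.62 TPM with desflurane. Microsomal epoxide hydrolase (Ephx1), which acts on epoxides of foreign compounds, lay between 469.5 and 619.1 TPM and was not called. The prostaglandin synthase Ptges was listed at 0 in all libraries.

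Cyp17a1 (chr1:266422151-266428144, minus strand), which makes the precursors of sex steroids, was the gene that differed most between libraries and the one gene called between the agents at 6 h. Its level was 2.94 TPM in sevoflurane 0 h, 12.8 in sevoflurane 6 h, 5.96 in desflurane 0 h and 4.94 in desflurane 6 h. Sevoflurane 6 h stood above the other 3 libraries, and the groups of 6 h and 0 h overlapped. The ratio was 4.36 with sevoflurane and 0.829 with desflurane. Set against the sevoflurane control instead, the desflurane change turned from -0.23 to 0.59 on the log2 scale, so its direction depends on the control. The controls already differed by a ratio of 2.02, and the desflurane 6 h level was 2.60-fold lower than the sevoflurane 6 h level. Over both agents the gene was not called (0.79 on the log2 scale, SE 0.40, limma with Benjamini-Hochberg adjustment, adjusted p = 0.33). With 1 animal in each group the difference between the agents was not tested. The mean coverage of the gene was 6.94-fold in sevoflurane 0 h and 18.0-fold to 43.9-fold in the other libraries.

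The remaining genes of steroid synthesis were at or near 0. Cyp11a1, Cyp11b1, Cyp11b2 and Cyp11b3, which act in the adrenal cortex, were listed at 0 in all 4 libraries, and Cyp21a1 and Cyp19a1 reached at most 0.160 and 0.0487 TPM. The adrenal markers Mc2r and Nr5a1 were listed at 0 as well, and Star lay between 0.222 and 0.575 TPM. The kidney markers Umod and Slc34a1 were also at 0. Of 9 other genes of steroid hormone conversion that were used, sevoflurane had 2 called higher and 2 lower, and desflurane 1 higher and 2 lower. Hsd17b2, which inactivates sex steroids, had 35.6 and 747 TPM with sevoflurane and 134 and 578 TPM with desflurane at 0 h and 6 h, so its controls also differed. Hsd3b5, a liver steroid dehydrogenase, had 296 and 63.2 TPM with sevoflurane and 264 and 127 TPM with desflurane. Akr1c14 was called higher and Akr1d1 lower with sevoflurane, and Stard5 lower with desflurane.

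Cyp39a1 (chr9:19804079-19880346, minus strand), which hydroxylates an oxysterol on the way to bile acids, had 43.3 and 55.3 TPM in sevoflurane 0 h and 6 h and 39.5 and 46.7 TPM in desflurane 0 h and 6 h. Both 6 h livers lay above both controls by a small margin, and the change of 0.29 (SE 0.15) was not called (limma, Benjamini-Hochberg adjusted p = 0.331). Cyp46a1, the brain enzyme that makes a hydroxycholesterol, reached at most 0.0253 TPM. Cyp2r1, the vitamin D hydroxylase of the liver, had 9.98 and 7.22 TPM with sevoflurane and 9.34 and 6.87 TPM with desflurane. Its controls lay above both 6 h livers, and the change of -0.41 (SE 0.21) was not called (limma, adjusted p = 0.334). The later enzymes of the pathway were Cyp27b1, at 0.0404 TPM or less, and Cyp24a1, listed at 0 throughout, and the vitamin D receptor gene Vdr was listed at 0 too. Neither of the 2 other vitamin D genes used, Gc and Lrp2, was called with either agent.

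The retinoic acid oxidases stayed below the mean of 1 TPM. Cyp26a1, the main such enzyme of liver, had 0.953 and 1.07 TPM with sevoflurane and 0.469 and 0.756 TPM with desflurane at 0 h and 6 h, and Cyp26b1 lay between 0.0409 and 0.235 TPM. Among 10 other genes of retinoid handling that were used, 0 were called with sevoflurane and 1 was called higher with desflurane. That gene was Rdh16, a retinol dehydrogenase, with 72.4 and 125.9 TPM with sevoflurane and 70.1 and 143 TPM with desflurane. Cyp20a1 (chr9:67130259-67179693), a P450 without a known substrate, had 9.82, 12.1, 11.1 and 12.9 TPM and was not called. Of the 21 genes with a mean below 1 TPM, 6 were listed at 0 in all libraries, 15 were above 0 in at least 1, and 2 passed 1 TPM in any library.

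P450 enzymes depend on electron donors, and of 9 genes for donors and other partners 1 was called. Por, the reductase that serves the microsomal P450 enzymes, had 21.8 and 538 TPM with sevoflurane and 28.6 and 386 TPM with desflurane at 0 h and 6 h, and was called higher with both. Cytochrome b5 (Cyb5a), which assists some P450 reactions, lay between 848 and 1081 TPM and was not called. Fdx1 and Fdxr, the mitochondrial donors, were not called either. Beside the ratios of 24.7 and 13.5 for Por, the highest ratios of 6 h to 0 h among the 21 P450 genes were 4.36 with sevoflurane (Cyp17a1) and 1.96 with desflurane (Cyp4b1).

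The deposited tables list each gene by name and, beside it, the locus assembled from the reads of each library. For 15 of the 21 genes the assembled locus held no other named gene, and its values could be set beside those of the named gene. Where several loci lay over a gene, only the one with the largest overlap was used. The ratios with sevoflurane and desflurane were 0.483 and 0.415 for the Cyp4f6 locus, 0.523 and 0.383 for Cyp2f4, 2.62 and 1.84 for Cyp4b1, 1.94 and 1.37 for Cyp4f4, 1.61 and 1.67 for Cyp2j4, and 1.48 and 1.75 for Cyp1a2. Each of these 6 kept its direction with both agents, and Cyp4f6 passed the ratio of 2 with sevoflurane too. Since the loci are built from the same reads as the named genes, this is not an independent check. The Cyp1a2 locus had the level of the named gene in every library, and the Cyp4f4 and Cyp2j4 loci stood at 1 to 1.01 times it. The Cyp17a1 locus gave 4.25 and 0.849. The Cyp2j3 locus differed more from its gene, with ratios of 0.647 and 0.960 against 0.950 and 0.908. It stood at 1.25 to 1.83 times the named level, and in each sevoflurane library 2 loci lay over that gene. The locus used had 96.9 and 62.7 TPM in sevoflurane 0 h and 6 h, but both loci together had 123 and 166 TPM. The direction of the Cyp2j3 locus with sevoflurane thus depends on which loci are counted. In the other 6 genes the locus ran across neighbouring genes in some library, as in the Cyp2d cluster and at Cyp4v3, whose locus stood at 117 to 176 TPM against 2.75 to 4.00 TPM for the gene.

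**Figure D4:**
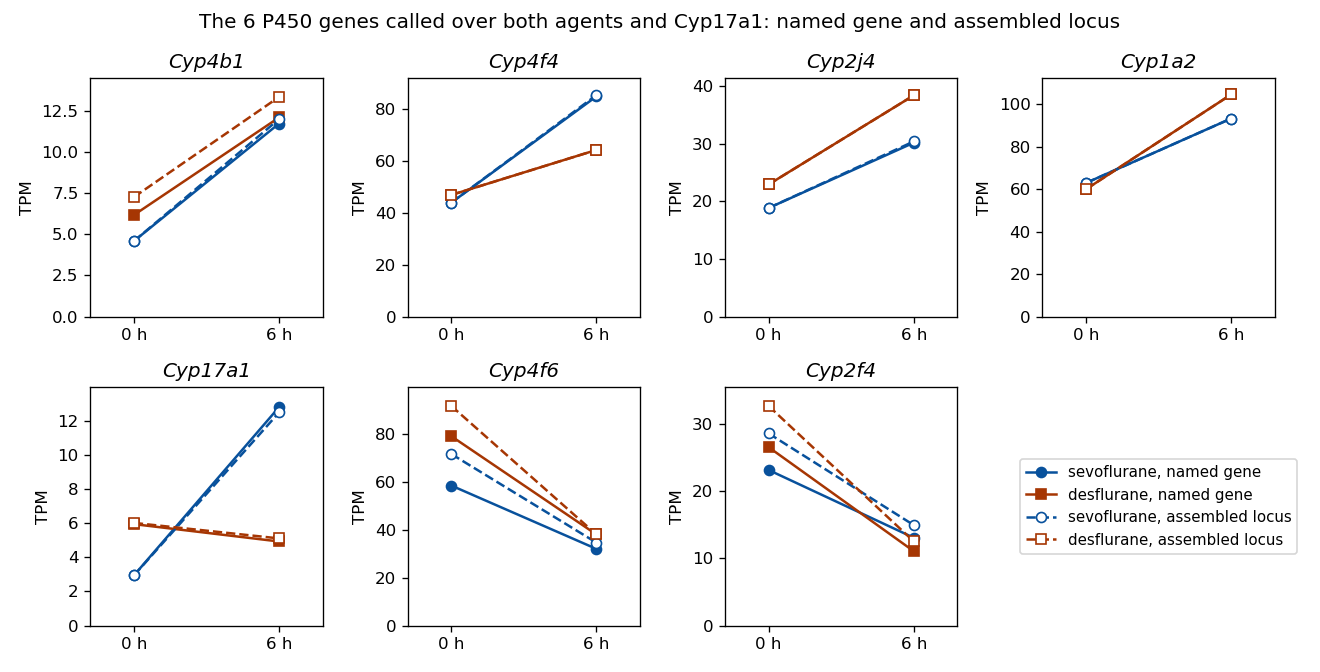
Level in TPM (y axis, from 0) at 0 h and 6 h (x axis) of the 6 genes called over both agents and of Cyp17a1, with blue circles for sevoflurane, red-brown squares for desflurane, filled symbols and solid lines for the named gene and open symbols and dashed lines for its assembled locus. Each point is 1 library, and the lines of both agents run the same way in every panel but that of Cyp17a1, where sevoflurane goes from 2.94 to 12.8 TPM and desflurane from 5.96 to 4.94 TPM, a direction that turns against the other control.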

How the data were processed

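Total RNA of rat liver (RNeasy Midi) was sequenced from stranded libraries depleted of ribosomal RNA. The submitters' processing notes name HISAT2, SAMtools, StringTie and the build rn6. No versions are given there. The authors deposited, per library, a gene table of coverage (mean depth per base), FPKM and TPM. Named genes re-list the assembled loci, which alone fill the TPM total, so the deposited TPM column was handled as a score, although every single value is a TPM. Coverage over deposited FPKM gave the aligned bases. Rows of a symbol were summed, and those spanning at most 200 bp dropped. Log2 changes used log2(TPM + 1), which understates changes of low genes. Named were the 10 genes of highest mean and all those called with either agent or between controls, with up to 3 examples per role. The test over both agents used limma 3.58.1 (R 4.3.3, two-sided, eBayes with trend), tables used Python 3.11.15, and the steps were tested on simulated data. Coordinates are those of the deposited tables. The genes and lists were chosen with earlier results of these data known. Other ratios, minimums, scalings, pseudocounts, controls and left-out libraries were tried. Without read counts in the tables, counting intervals were not computed.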

Additional observations from a re-analysis of the deposited data

How the results depend on the processing

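Each group held 1 library, and errors come only from the fit over both agents. Its block pairs each 6 h library with the control of its agent, and without the block 4 genes were called (not Cyp4f4 and Cyp2j4). With a ratio above 1.5, 4 genes were called higher and 2 lower with sevoflurane, 3 higher and 3 lower with desflurane, 3 higher in the desflurane control and 2 lower between agents at 6 h. For this and the other settings of the ratio rule below, the share of all genes called was not computed. These counts therefore stand without a background. With a ratio above 3, 1 was called higher with sevoflurane (Cyp17a1), and 0 lower with desflurane, 0 higher in the desflurane control and 0 lower between agents at 6 h. Scaling by the median of ratios, and rescaling the named genes without the abundant RNA gene Rn7sl1 to a common total, each gave 1 higher and 1 lower with desflurane and 0 between controls (Cyp17a1 lost). Against the control of the other agent, 1 gene was higher and 2 lower with sevoflurane, 2 were higher and 1 lower with desflurane, and the median change turned to -0.061 with sevoflurane and 0.22 with desflurane. Assembled loci, an alternative chosen after seeing the data, gave 1 lower with sevoflurane (Cyp4f6), 3 lower with desflurane (Cyp2f4, Cyp4f6 and Cyp4f17), 2 higher in the desflurane control (Cyp17a1 and Cyp4f17) and 2 lower between agents at 6 h (Cyp17a1 and Cyp2u1). The Cyp4f17 calls came from using only the locus with the largest overlap in each library. Summed, the loci over Cyp4f17 stood at 4.20 TPM in sevoflurane 0 h, 3.25 in desflurane 0 h and 3.07 in desflurane 6 h. Neither Cyp4f17 call holds on these summed levels. The limma calls over both agents numbered 1 to 4 with a library left out and the block dropped, and 6, the same genes, under a pseudocount of 0.1, scaling or a mean of at least 5 TPM. Of single genes, Cyp4f6 with desflurane moved to -0.92 under scaling and -0.61 against the other control, and Cyp4b1 with sevoflurane to 0.83 against the other control, all short of a ratio of 2. Cyp4f6 (-1.28) and Cyp2f4 (-0.97) with sevoflurane and Cyp4b1 with desflurane (1.23) passed it against the other control, as did Cyp4b1 with desflurane under scaling (0.97) and the Cyp4f6 locus with sevoflurane (-1.03), and Cyp17a1 with desflurane turned from -0.23 to 0.59 against the other control. The causes were not tested.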
